A study of Mus musculus with 6 samples.

Results

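The transcripts of 10 pluripotency factors were followed in mouse fetal testes collected at E13.5. The factors were Pou5f1, Nanog, Sox2, Sall4, Lin28a, Utf1, Zfp42, L1td1, Klf4 and Trim71. Every probe set whose platform annotation gave exactly 1 gene symbol equal to one of these names was taken, which gave 16 of the 45101 probe sets on the array, for all 10 genes. A probe set is a group of short oligonucleotides that together report 1 transcript, and its value is a fluorescence intensity. Of the 16, 14 had a mean log2 intensity of at least 4 over the 6 arrays and were tested, and these 14 covered all 10 genes. The other 2, Sall4 1424153_s_at and Utf1 1458333_x_at, lay below that filter, with intensities of 7.82 to 12.1 and 3.13 to 4.31. Oligonucleotides of different probe sets bind with different strength, so intensities are compared between arrays and not between probe sets.

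The series set 3 testis samples homozygous null for Dmrt1 against 3 control testis samples, all from mice outcrossed to the 129S6/SvEvTac strain, with each sample labelled as its own biological replicate. The labels of the groups disagree with each other. The null samples are (-,-) in title, description and design text, while their genotype entry gives floxed alleles on both chromosomes and no Cre line. The controls are wild type by title, but Dmrt1 (+/-) by description, genotype entry and design text, so they may carry 1 null allele. The RNA came from whole gonads, in which germ cells lie among Sertoli, Leydig, interstitial, endothelial and blood cells. Fewer cells of a type and less RNA per cell cannot be told apart in such samples.

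Primordial germ cells are unusual among cells of the later embryo in that they keep transcribing the factors that hold embryonic stem cells in the pluripotent state. In the male mouse this expression declines as the germ cells stop dividing and take up spermatogonial fate, and germ cells that fail to do so can give rise to teratomas. OCT4 (the product of Pou5f1), SOX2 and NANOG bind regulatory DNA together and sustain each other's genes. LIN28A and TRIM71 act on RNA instead, and both are tied to the let-7 microRNAs, whose maturation LIN28A blocks and which repress Trim71. DMRT1, a transcription factor with a DM domain, is made by both the germ cells and the Sertoli cells that enclose them.

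The promoters of some of these genes are shown because such factors are known to act on one another's genes. RefSeq windows on GRCm38.p6, each with 250 bases before and 50 after an annotated start, matched 9 of the 10 genes, and of the starts in that table the one farthest upstream was used for each gene. Letters searched on both strands were ATGCNAAT for the octamer that POU factors bind, ACAATG for a SOX core, GGGNGTGG for the box of KLF factors and ACANTGT for the core of the DMRT1 motif, which can overlap the SOX core. The octamer letters occurred in 1 member promoter, that of Zfp42, and in 3.15% of all 32851 windows. The SOX letters occurred in 2, Nanog and Lin28a, and in 12.6% of all windows. KLF letters were in 4, Pou5f1, Nanog, Zfp42 and L1td1, and in 17.6% of all windows. The DMRT1 letters were in Nanog alone among these 9, at the same place as its SOX letters, and in 7.54% of all windows. The windows of Pou5f1 and of the 3 genes with octamer or SOX letters are printed 5′ to 3′ on the strand of the gene, with all matches in capitals. The Lin28a window lies wholly within the gene as annotated, whose 5′ end is at chr4:134019196, and so is not upstream of that end.
Pou5f1 promoter, chr17:35505782-35506081 (+ strand): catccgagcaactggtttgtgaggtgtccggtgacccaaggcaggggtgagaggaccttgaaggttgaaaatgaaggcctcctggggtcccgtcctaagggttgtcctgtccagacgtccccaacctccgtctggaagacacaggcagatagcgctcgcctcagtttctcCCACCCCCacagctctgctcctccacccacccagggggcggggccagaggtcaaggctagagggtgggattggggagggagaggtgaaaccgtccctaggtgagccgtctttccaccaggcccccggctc
Nanog promoter, chr6:122707239-122707538 (+ strand): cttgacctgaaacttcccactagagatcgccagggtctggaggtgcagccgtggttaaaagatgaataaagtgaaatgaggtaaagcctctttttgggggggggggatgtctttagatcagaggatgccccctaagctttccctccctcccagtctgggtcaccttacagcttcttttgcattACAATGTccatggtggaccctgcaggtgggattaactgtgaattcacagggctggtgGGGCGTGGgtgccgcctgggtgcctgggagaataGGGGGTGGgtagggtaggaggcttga
Lin28a promoter, chr4:134018767-134019066 (- strand): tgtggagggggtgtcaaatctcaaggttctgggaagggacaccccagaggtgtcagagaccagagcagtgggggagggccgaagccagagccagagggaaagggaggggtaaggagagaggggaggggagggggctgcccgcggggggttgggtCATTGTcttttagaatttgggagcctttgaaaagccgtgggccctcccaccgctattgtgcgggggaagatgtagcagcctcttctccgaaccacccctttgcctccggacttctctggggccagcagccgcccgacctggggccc
Zfp42 promoter, chr8:43306960-43307259 (- strand): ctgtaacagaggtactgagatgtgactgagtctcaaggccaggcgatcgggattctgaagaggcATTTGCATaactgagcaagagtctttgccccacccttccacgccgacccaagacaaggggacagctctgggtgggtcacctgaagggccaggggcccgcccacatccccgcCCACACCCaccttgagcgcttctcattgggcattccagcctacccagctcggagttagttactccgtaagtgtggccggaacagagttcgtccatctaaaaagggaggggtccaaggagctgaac
In Nanog the SOX letters lay at -67 to -62 relative to the start, directly after the run gcatt. In Zfp42 the octamer lay at -186 to -179. A match is a description of letters and says nothing of binding in these testes. Only exact letters were counted, so a window without octamer letters, that of Nanog included, can still hold a site of similar letters.

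The arrays followed their labels for Dmrt1 and for the tissue. Dmrt1 had intensities of 48.4, 26.9 and 23.8 in null replicates 1, 2 and 3, against 696, 1030 and 796 in control replicates 1, 2 and 3. The Sertoli genes Sox9 and Amh lay at 298 to 877 and 133 to 166 over the 6 arrays, and the germ cell genes Ddx4 and Dazl at 1470 to 2620 and 2760 to 3750, against array medians of 14.6 to 14.8. Control replicate 2 stood apart from the other arrays. Its 17 germ cell markers summed to an intensity of 17810, against 9354 to 11890 elsewhere, and its 10 endothelial markers to 1792, against 2766 to 5004. Not every germ cell marker was high there. Rhox9 and Rhox6 were lowest in that array, at 25.9 and 14.2, and Kit was at 166, against 155 to 327 elsewhere. Gtsf1, a piRNA pathway gene, was at 307 in control replicate 2 and at 11.1 to 43.6 in the other 5 arrays. The 3′ over 5′ ratio of the array's Actb controls is an indirect sign of RNA integrity, taken here after amplification. It was 2.75 for null replicate 3, whereas the other arrays lay at 1.91 to 2.15. Differences of the members that rest on such an array are given with and without it below. Depth has no direct measure on arrays, and 3 arrays per group limit the precision of all comparisons.

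The comparison asks whether pluripotency transcripts differ in the fetal testis without Dmrt1 in a strain whose mutants often form teratomas. No member passed the test in either direction. By limma with Benjamini-Hochberg adjustment over 22082 probe sets, 0 of the 14 tested member probe sets were called at an adjusted p of 0.05, where 0.0272% of all tested probe sets were called. At an unadjusted p of 0.05 the members also numbered 0, against 6.04% of all tested. Mean log2 values were higher in the null for 6 probe sets and lower for 8, with adjusted p of 0.773 to 1.00. The median difference of null minus control over the 14 was -0.10 on the log2 scale, beside 0.01 over all probe sets tested. With the brightest probe set of each gene, 5 genes had the higher mean in the null and 5 the lower, with a median of -0.0016. The groups did not overlap at 2 of the 14 probe sets, against 12.8% of all tested. Both had the nulls lower, which 6.06% of all tested did, and 0 had the nulls higher, against 6.73%.

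**Figure D1:**
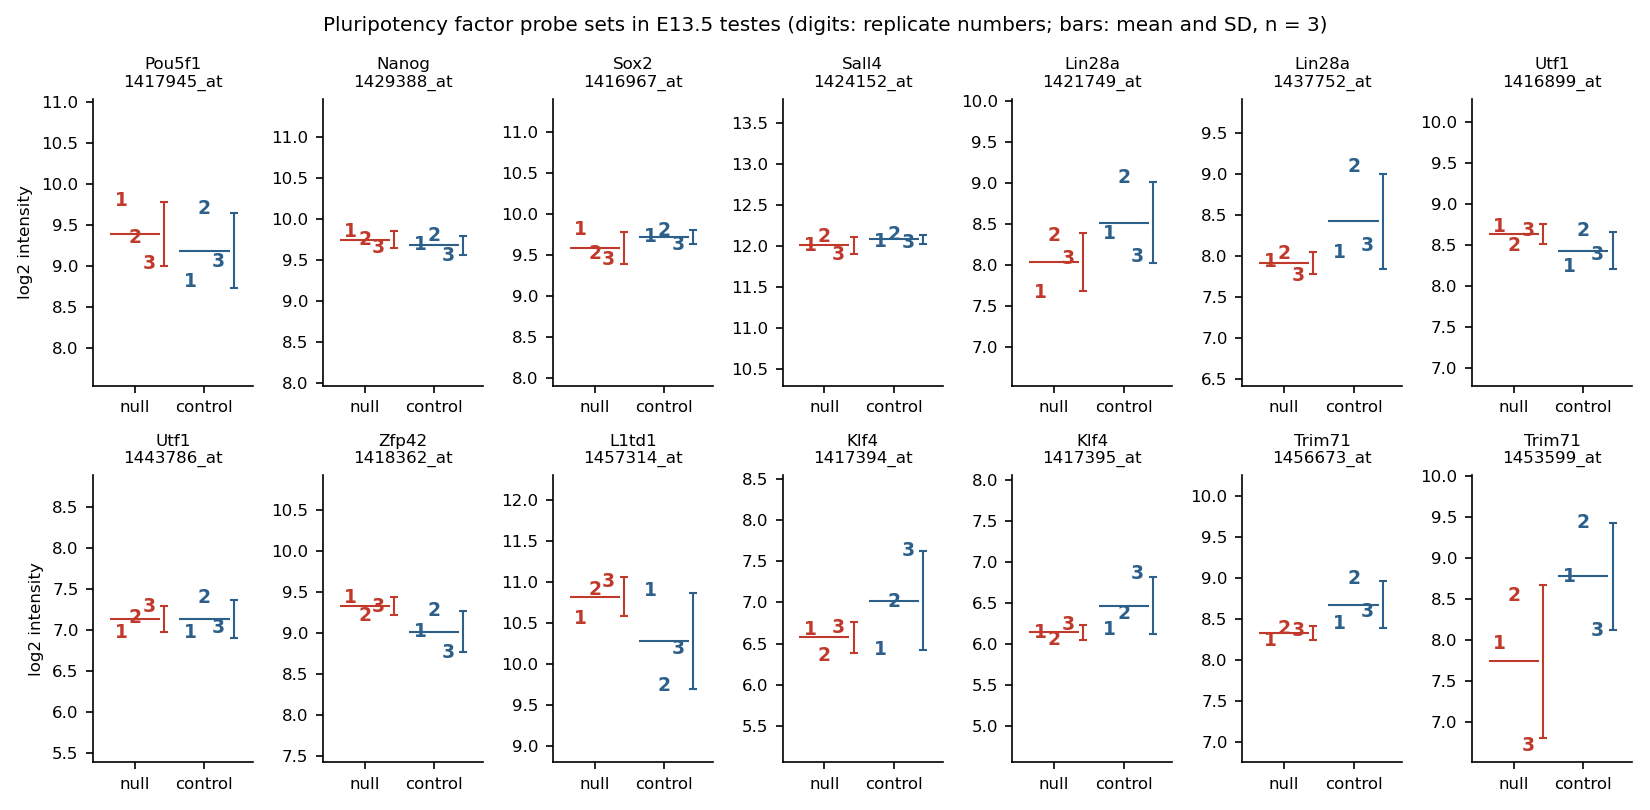
Log2 intensity of the 14 tested probe sets of the pluripotency factors in null and control testes, on axes of equal span. Digits are replicate numbers, and lines and bars give the mean and SD of 3 arrays. Nanog and Sall4 sit in narrow bands shared by both groups, whereas Lin28a and Trim71 are high in control replicate 2 and Klf4 in control replicate 3.

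Pou5f1 encodes the POU-domain factor without which neither the pluripotent embryo nor the germ line persists in the mouse. Its intensities were 892, 652 and 524 in null replicates 1, 2 and 3, against 451, 832 and 532 in control replicates 1, 2 and 3. Null replicate 1 and control replicate 2 were the highest 2 arrays, so the groups overlapped across nearly their whole range. The null mean was 689 ± 187 and the control mean 605 ± 201 (SD, n = 3 each). This is 1.15-fold, with a 95% interval of 0.757 to 1.75 and a limma adjusted p of 0.885. The log2 difference of 0.20 shrank to 0.00 when null replicate 1 was left out and to 0.02 when control replicate 1 was. It grew to 0.46 when control replicate 2 was left out and to 0.38 when null replicate 3 was. With the germ cell marker level of each array as a covariate it was 0.51 (standard error 0.19), and with that level subtracted from each array it was 0.55 (limma adjusted p = 0.566 and 0.703). That level was the mean log2 deviation of the 17 germ cell markers, at 0.77 in control replicate 2 and -0.30 to 0.04 elsewhere. It mostly sets control replicate 2 apart, and markers of wide range, such as Gtsf1, weigh most in it. Fits with it are therefore not an adjustment for germ cell number. Subtracting it also adds the same amount to the difference of every probe set, here and for the members below. That shift is not a result about any single gene.

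Nanog, a homeobox gene, and Sox2, an HMG-box gene, varied far less. Nanog was at 921, 859 and 801 in null replicates 1, 2 and 3 and at 822, 886 and 753 in control replicates 1, 2 and 3. Its largest value was 1.22 times its smallest, and the null to control fold of 1.05 had an interval of 0.887 to 1.24 (limma adjusted p = 0.902). Sox2 was at 896, 732 and 694 in null replicates 1, 2 and 3, and at 846, 890 and 794 in control replicates 1, 2 and 3. Null replicates 2 and 3 were below all controls and null replicate 1 above them, which left a fold of 0.913 (interval 0.752 to 1.11, limma adjusted p = 0.832). Leaving out null replicate 1 took Sox2's log2 difference of -0.13 to -0.24, and leaving out null replicate 3 took it to -0.06. For Nanog, 0.07 became 0.02 or 0.01 when null replicate 1 or control replicate 3 was left out, and 0.12 or 0.13 when null replicate 3 or control replicate 2 was. Neither gene was called in any of these fits.

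Sall4 encodes a zinc finger protein needed for primordial germ cells, and of the members it gave the narrowest interval. Its tested probe set read 4100, 4420 and 3810 in null replicates 1, 2 and 3, against 4240, 4500 and 4210 in control replicates 1, 2 and 3. The null mean of 4110 ± 305 and the control mean of 4317 ± 160 (SD, n = 3 each) gave a fold of 0.951 with an interval of 0.855 to 1.06 (limma adjusted p = 0.830). Its log2 difference of -0.07 became -0.02 or -0.04 when null replicate 3 or control replicate 2 was left out, and -0.13 when null replicate 2 was. The Sall4 probe set below the filter had a log2 difference of -0.24 at values where background correction sets much of the level.

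Utf1 and Zfp42 are markers of undifferentiated stem cells, the first a chromatin-associated factor and the second, also called REX1, a zinc finger protein. Utf1 1416899_at was at 422, 360 and 411 in null replicates 1, 2 and 3 and at 301, 411 and 334 in control replicates 1, 2 and 3. The second tested Utf1 probe set, 1443786_at, was at 126, 142 and 156 in null replicates 1, 2 and 3 and at 126, 169 and 131 in control replicates 1, 2 and 3. The 2 probe sets did not give the same order of arrays, and their log2 differences were 0.20 and 0.00 (limma adjusted p = 0.809 and 1.00). The first was 0.10 when control replicate 1 was left out, 0.32 when control replicate 2 was, 0.35 with the germ cell level as a covariate and 0.54 with it subtracted. Leaving out 1 array at a time put the second anywhere from -0.08 to 0.13, so its sign was not stable.

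Zfp42 was at 691, 595 and 642 in null replicates 1, 2 and 3, against 517, 619 and 435 in control replicates 1, 2 and 3. Only control replicate 2 reached into the null range, where it exceeded null replicate 2 alone. The mean was 643 ± 48.0 in nulls and 524 ± 92.2 in controls (SD, n = 3 each), a fold of 1.24 with an interval of 0.978 to 1.57 and a limma adjusted p of 0.773. This direction held in every fit with 1 array left out, with log2 differences of 0.18 to 0.44 around the 0.31 of all arrays, the lowest without control replicate 3. It was 0.42 with the germ cell level as a covariate and 0.65 with it subtracted (limma adjusted p = 0.566 and 0.703).

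L1td1, an RNA-binding protein derived from the first open reading frame of a LINE-1 element, had the largest positive difference among the members. Its intensities were 1510, 1920 and 2050 in null replicates 1, 2 and 3, against 1910, 854 and 1170 in control replicates 1, 2 and 3. Control replicate 1 was as high as the nulls, and control replicates 2 and 3 were below all of them. The mean was 1827 ± 282 in nulls and 1311 ± 542 in controls (SD, n = 3 each). The fold was 1.46, with an interval of 0.952 to 2.24 and a limma adjusted p of 0.773. Leaving out control replicate 2 brought the log2 difference of 0.55 to 0.28, and leaving out control replicate 1 brought it to 0.86, with limma adjusted p of 0.801 and 0.803. With the germ cell level as a covariate the difference was 0.19. Subtracting that level, which raises every probe set by the same amount, put it at 0.89. The subtracted fit had an unadjusted limma p of 0.0183, and the limma adjusted p of the 2 fits were 0.661 and 0.703.

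L1td1 ran opposite to the median germ cell marker across arrays, though Rhox9 and Rhox6 were, like L1td1, lowest in control replicate 2. It was lowest in control replicate 2, at 0.81 below its 6-array mean on the log2 scale, where the median germ cell marker stood 0.63 above its own. The median endothelial and erythroid markers stood 1.11 and 1.03 below their means in the same array. In the human, L1TD1 is known as a partner of LIN28A in embryonic stem cells, but here Lin28a was highest in the array where L1td1 was lowest. The part of other cell types in the L1td1 values was not tested.

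Lin28a encodes the RNA-binding protein that blocks let-7 maturation and is needed for primordial germ cells to form in normal number. Probe set 1421749_at was at 202, 327 and 270 in null replicates 1, 2 and 3, against 332, 533 and 274 in control replicates 1, 2 and 3. Probe set 1437752_at was at 243, 261 and 217 in null replicates 1, 2 and 3, against 263, 544 and 280 in control replicates 1, 2 and 3. Both were highest in control replicate 2, and the second had every null below every control, though by a margin of only 261 to 263. The folds were 0.717 (interval 0.465 to 1.10) and 0.700 (interval 0.456 to 1.08), each with a limma adjusted p of 0.774. Without control replicate 2 the log2 differences of -0.48 and -0.51 were -0.21 and -0.18. They were -0.27 and -0.17 with the germ cell level as a covariate, and -0.14 and -0.17 with it subtracted. The first was -0.30 without null replicate 1.

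Trim71, a ubiquitin ligase with RNA-binding NHL repeats, was read by 2 tested probe sets that differed in size. With 1456673_at it was at 302, 336 and 329 in null replicates 1, 2 and 3, against 349, 511 and 385 in control replicates 1, 2 and 3. Every null lay below every control, and the fold was 0.786 with an interval of 0.608 to 1.02 (limma adjusted p = 0.773). With 1453599_at it was at 249, 372 and 105 in null replicates 1, 2 and 3, against 439, 689 and 278 in control replicates 1, 2 and 3. That probe set spanned 6.56-fold over the arrays, and its null and control values overlapped because null replicate 2 exceeded control replicate 3. Its fold was 0.487, with an interval of 0.226 to 1.05 and a limma adjusted p of 0.773.

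Both Trim71 differences shrank without control replicate 2, and that of 1453599_at shrank most without null replicate 3. The log2 difference of 1456673_at was -0.35 with all arrays and -0.19 without control replicate 2. With the germ cell level as a covariate it was -0.18, and with that level subtracted -0.0022. The subtraction raises the difference of every probe set by the same amount, so -0.0022 says nothing particular of Trim71. The log2 difference of 1453599_at was -1.04 with all arrays and -0.71 without control replicate 2. With the germ cell level as a covariate it was -0.78, and with that level subtracted -0.69. It was -0.53 without null replicate 3, the array with the highest 3′ over 5′ ratio of Actb. The part of RNA integrity or amplification in the low value of null replicate 3 was not tested. All 4 Lin28a and Trim71 probe sets were highest in control replicate 2, the array with the highest germ cell marker sum.

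Klf4, a zinc finger factor of the KLF family, is one of the reprogramming factors and is also known from somatic cells, Sertoli cells of the mouse testis among them. Probe set 1417394_at was at 102, 81.9 and 104 in null replicates 1, 2 and 3, against 85.8, 129 and 199 in control replicates 1, 2 and 3. Probe set 1417395_at was at 70.8, 66.3 and 75.5 in null replicates 1, 2 and 3, against 72.3, 83.2 and 116 in control replicates 1, 2 and 3. Both were highest in control replicate 3 and in both control replicate 1 lay among the nulls. The folds were 0.733 (interval 0.462 to 1.17) and 0.798 (interval 0.583 to 1.09), with limma adjusted p of 0.788 and 0.778. The log2 differences of -0.45 and -0.33 were -0.14 and -0.13 without control replicate 3, and the first was -0.75 without control replicate 1. The summed intensity of the 8 macrophage markers was 2277 to 2676 in the nulls, against 2636, 2695 and 3351 in control replicates 1, 2 and 3, and so was highest in the same array as Klf4. The part of these cells in the Klf4 value was not tested.

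**Figure D2:**
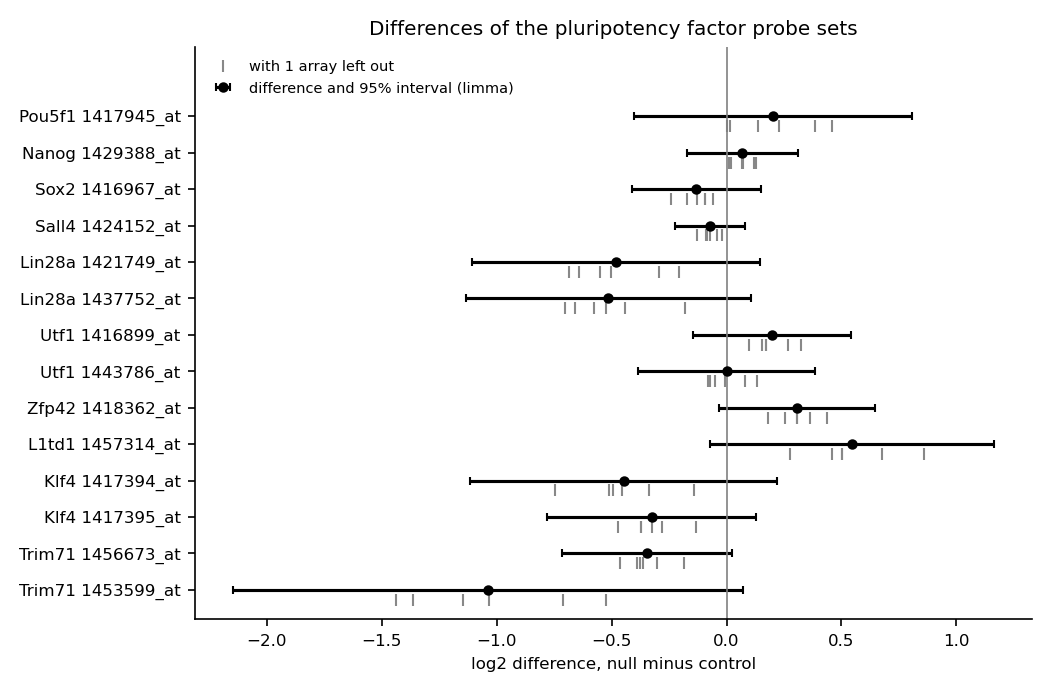
Log2 difference of null minus control for the 14 tested probe sets (points) with 95% intervals from limma, and the differences with each array left out in turn (grey ticks). All 14 intervals include 0, and that of Sall4 is the narrowest.

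Null replicate 2 and control replicate 3 share the leading number in their descriptions, whose meaning the labels do not explain. Between these 2 arrays alone, without replication, Klf4 had log2 differences of -1.28 and -0.81 and L1td1 one of 0.71. Zfp42 was 0.45 higher in the null array and Pou5f1 0.29. Lin28a was at 0.26 and -0.10, and Trim71 at -0.20 and 0.42, so their probe sets disagreed in sign. Nanog was at 0.19, Sox2 at -0.12 and Sall4 at 0.07. No other pair of a null and a control array shares such a number.

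The members did not move as a block from array to array. As deviations from the 6-array mean on the log2 scale, control replicate 2 held the highest value for 6 of the 14 probe sets and null replicate 1 for 5. Null replicate 3 held the lowest for 4. The root mean square difference over the 6 arrays was smallest among tested probe sets for Nanog and Sall4, at 0.10. Nanog and Sox2 followed at 0.12. These genes spanned only 0.24 to 0.37 on the log2 scale over the arrays. Flat profiles differ little by this measure, so it does not show that these genes rose and fell together. Utf1 1416899_at and Zfp42 differed by 0.13. The 2 Lin28a probe sets differed by 0.23, more than 1437752_at differed from Trim71 1456673_at, which was 0.21. The measure grows with range, which was 1.40 and 1.33 for the Lin28a probe sets and 0.76 for that of Trim71.

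**Figure D3:**
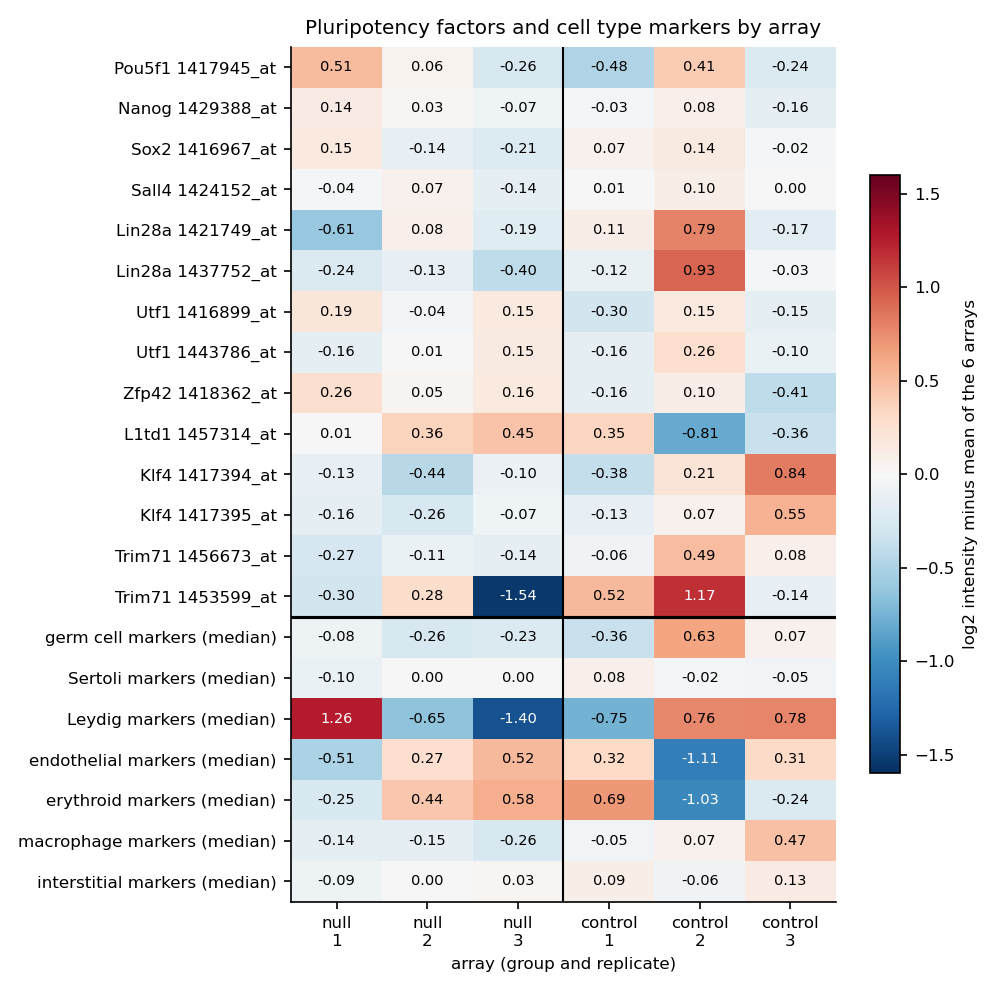
Log2 intensity of each array minus the mean of the 6 arrays, for the 14 tested member probe sets (upper block) and as the median over each list of cell type markers (lower block), with null arrays left of control arrays. Control replicate 2 combines a high median of germ cell markers and high Lin28a and Trim71 with low L1td1, endothelial and erythroid markers.

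The genes closest to Pou5f1 in profile, among 9967 probe sets of comparable or wider range, were Lrrc75b, Coprs, Tmem256 and Sbspon, with root mean square differences of 0.08 to 0.09 over the 6 arrays. Coprs, which encodes a partner of the methyltransferase PRMT5, was at 1490, 1040 and 958 in null replicates 1, 2 and 3 and at 849, 1450 and 952 in control replicates 1, 2 and 3. It peaked in the same 2 arrays as Pou5f1. Lin28a 1421749_at, the widest in range of the brightest probe sets, was closest to Rictor, Rpusd2, Dppa2 and Prkcq among 5336 candidates, with differences of 0.15 to 0.17. Dppa2, itself a gene of pluripotent and germ cells, was read there by a dim probe set. It was at 47.9, 57.8 and 55.9 in null replicates 1, 2 and 3 and 71.0, 93.9 and 62.1 in control replicates 1, 2 and 3. The brightest Dppa2 probe set was at 674, 972 and 822 in those nulls and 1050, 915 and 961 in those controls. That probe set was highest in control replicate 1, whereas Lin28a was highest in control replicate 2. The search was also run for the other members after values were seen, and of those only L1td1 is given here. L1td1 was closest to Aldh1a7, Igdcc3, Kctd14 and Lefty2. Lefty2, an extracellular inhibitor of Nodal, was at 1420, 1710 and 1650 in null replicates 1, 2 and 3 and at 1390, 725 and 959 in control replicates 1, 2 and 3. These likenesses rest on 6 arrays and are given as descriptions.

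Among other genes of the pluripotency network, none was called. Of 39 listed, 38 were measured and 35 passed the filter, with 14 higher and 21 lower in the null and a median difference of -0.05, beside 0.01 over all probe sets tested. At an unadjusted limma p of 0.05, 3 were higher and 2 lower of the 35, against 2.75% and 3.28% of all tested. Tfap2c, a factor of early germ cells, had the largest difference, at 1.00 (standard error 0.37, limma adjusted p = 0.773). It was at 734, 1120 and 1420 in null replicates 1, 2 and 3, against 884, 315 and 519 in control replicates 1, 2 and 3, and so was lowest in control replicate 2, as was L1td1. The Nodal inhibitor Lefty1 was at 179, 136 and 108 in null replicates 1, 2 and 3, against 105, 65.5 and 95.7 in control replicates 1, 2 and 3, with no overlap and a log2 difference of 0.67. Nr0b1, a nuclear receptor gene, was at 220, 162 and 202 in null replicates 1, 2 and 3, against 158, 117 and 123 in control replicates 1, 2 and 3, again with no overlap and a difference of 0.55. The Nodal co-receptor Tdgf1 had a difference of 0.59. Without control replicate 2 the differences of Tfap2c, Lefty1 and Tdgf1 were 0.64, 0.46 and 0.33, with limma adjusted p of 0.797 to 0.798.

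Without overlap between the groups, 3 of the 35 genes were lower in the null, against 6.06% of all tested, and the 2 above were higher, against 6.73%. Tet1, a dioxygenase that oxidises methylated cytosine in DNA, was at 453, 503 and 375 in null replicates 1, 2 and 3, against 618, 541 and 547 in control replicates 1, 2 and 3. Its log2 difference was -0.37, and those of the T-box gene Tbx3 and of Rif1, a regulator of replication timing, were -0.19 and -0.10, with limma adjusted p of 0.773, 0.773 and 0.785. Tfcp2l1, a transcription factor of stem cells, and Sall1, one of kidney development, were at -0.54 and -0.38 with overlapping groups, and at -0.29 and -0.22 without control replicate 2. Nr0b1 and Tbx3 are also transcribed in somatic cells of the gonad region, so their values need not come from germ cells.

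The LIN28 and let-7 axis showed smaller differences than Lin28a itself. Of 19 listed genes 15 were measured and 14 passed the filter, 7 higher and 7 lower, with a median difference of 0.00 and a range of -0.25 to 0.28. Called members numbered 0 by limma, and 0 at an unadjusted p of 0.05. Dgcr8, the partner of the microRNA processing enzyme Drosha, was at 0.28 and Drosha at -0.03. Dicer1, which cuts microRNA precursors, was at -0.15 and Ago2, which carries the mature microRNA, at -0.21. Dis3l2, the exonuclease that removes tailed let-7 precursors, was at 0.15, and Tut7, which adds the tail, at 0.06. The let-7 target Arid3b was at -0.25, or 0.05 without control replicate 2, and the ligase Trim32 at 0.05. Lin28b lay below the filter at 3.74 to 4.84 in all arrays. Mature let-7 was not analysed here.

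Germ cell markers other than the members stood lower in the null at 14 of 17 tested genes and higher at 3, with a median of -0.32. This rested on control replicate 2, without which 8 were lower and 9 higher, with a median of 0.02. Leaving out null replicate 3 instead gave 15 lower and 2 higher, with a median of -0.16. By limma 0 were called. At an unadjusted p of 0.05, 2 of the 17 were lower, Piwil2 and Tdrd5 of the piRNA pathway, against 3.28% of all tested. Their differences were -0.60 and -1.42, and control replicate 2 held the highest value of each, at 1740 and 435. Without it the differences were -0.34 and -0.76, with unadjusted p of 0.0743 and 0.108. The summed intensity of the 17 markers was 9372 to 11890 in nulls and 9354 to 17810 in controls, ranges that overlap except for control replicate 2. Ddx4 and Dazl, RNA-binding proteins of the germ line, had differences of -0.22 and -0.18 with overlapping groups, and of 0.02 and -0.10 without control replicate 2. The homeobox genes Rhox9 and Rhox6 were at 1.05 and 0.55, and at 0.65 and 0.34 without that array. Tdrd1, Tdrd9 and Tex101 were below the filter, and no marker was at 0.

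Somatic lists were as follows. Of 15 Sertoli markers 1 was called, Cst9, a cystatin-related gene, which fell by 1.58 on the log2 scale (limma adjusted p = 0.0271, and 0.104 without control replicate 2, at a log2 difference of -1.51), with Aard at -0.43, Nr5a1 at 0.54 and Gata4 at 0.25. Endothelial markers were higher at 9 of 10 (Egfl7 at 0.58, Cd34 at 0.43, Kdr at -0.15), with sums of 2766 to 5004 in nulls and 1792 to 4514 in controls. Erythroid markers were higher at 6 of 6 (Hbb-bh1 at 0.99, Hba-x at 0.48), with sums of 13420 to 18380 in nulls and 10860 to 19220 in controls. All 4 Leydig markers were lower (Cyp17a1 at -0.62, Cyp11a1 at -0.94), with sums of 3204 to 12950 in nulls and 4024 to 10320 in controls. The 8 macrophage markers were all lower (Mrc1 at -0.54, Adgre1 at -0.40), and of 8 interstitial markers 5 were lower (Col1a1 at -0.17, Ptch1 at -0.10) and 3 higher (Pdgfrb at 0.10, Tcf21 at 0.04). By limma no gene of these lists other than Cst9 was called. At an unadjusted p of 0.05 the lower genes were 4 of 15 Sertoli and 2 of 8 macrophage genes, against 3.28% of all tested, and the higher ones 1 of 15 Sertoli and 1 of 10 endothelial genes, against 2.75%. Without control replicate 2 the endothelial markers were lower at 9 of 10 and the erythroid ones at 4 of 6, with medians of -0.23 and -0.07, beside 0.23 and 0.35 with all arrays. Without null replicate 3 the endothelial and erythroid medians were 0.04 and 0.05. Leydig markers had a median of -0.53 with all arrays and of -0.28 without control replicate 2, and -0.0015 without null replicate 3.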

How the data were processed

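RNA of E13.5 mouse gonads was extracted with the Allprep Micro kit, and 100 ng was amplified with a NuGen Ovation kit and biotin-labelled, per the labels' protocols. Per the submitters' processing notes the authors used GCRMA, of unstated version, and the deposited intensities are linear, 1 column per array. Background correction, normalization and the summary of probes into probe sets are all part of GCRMA, so folds of dim probe sets depend on it.

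Arrays were grouped by title, 3 null and 3 control. GEO's platform annotation gave 34958 probe sets 1 symbol, 932 several and 9211 none. Entrez IDs matched 34754 to RefSeq genes (GRCm38.p6), used for names only, and 0 symbols changed. Log2 intensities with a mean of at least 4 (22082 probe sets) entered a limma 3.58.1 fit (R 4.3.3) on group alone. Its eBayes step used an intensity trend, and two-sided p-values were adjusted by Benjamini-Hochberg over all of them. Differences are null minus control, with 7.91 degrees of freedom and 95% intervals. The fit was tested on simulated data.

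The members and lists were chosen with earlier results of these data known. Lists used the brightest probe set of each gene. Besides the members and Dmrt1, the genes named were those of smallest p per direction, up to 4 in the 2 pathway lists and up to 2 in each marker list, with Ddx4 and Dazl, and the 4 genes of nearest profile for Pou5f1 and Lin28a. Sox9, Amh, Gtsf1, Kit, Rif1, Lin28b, Tdrd1, Tdrd9 and Tex101 were added after values were seen. So were profile searches for the members besides Pou5f1 and Lin28a, of which only that for L1td1 is given. Alternatives were other filters, normalizations, added constants and variance models, array weights, a replicate block, germ cell level as a covariate or subtracted, gene means, other thresholds, and leaving out each array. For the lists, leaving out control replicate 2 or null replicate 3 was added after the values were seen. Between any 2 arrays, 301 to 451 of 45101 values were equal, so no array was a copy.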

Additional observations from a re-analysis of the deposited data

How the results depend on the processing

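No member was called in any of 248 fits under another setting, and the lowest limma adjusted p among them was 0.457. Most were fits of a single probe set, and the rest took the mean over all probe sets of a gene, dim ones included. The sign of the difference held in 238 of the 248. It changed for Sox2 to 0.21, for Sall4 to 0.27 and for Klf4 1417395_at to 0.02 when the germ cell level was subtracted. Those changes were fixed in advance, because the subtraction adds the same amount to every probe set and so turns small negative differences positive. Otherwise the sign changed only for Utf1 1443786_at, whose difference was 0.00. An unadjusted limma p under 0.05 arose in 18 of the 248. Among these were Zfp42, L1td1 and both Klf4 probe sets with array weights, at log2 differences of 0.44, 0.63, -0.87 and -0.58. The same weights shrank the Lin28a differences to -0.13 and -0.31 (1421749_at and 1437752_at). Those of Trim71 shrank to -0.27 and -0.52 (1456673_at and 1453599_at). Over all probe sets the 6 calls became 1 without the intensity trend, 2 with the germ cell level as a covariate and 10 with it subtracted, and 1333 passed an unadjusted p of 0.05. With single arrays left out there were 0 to 4 calls. Deviations of same-numbered arrays correlated at -0.59, -0.34 and 0.14, and 1 of 6 arrays was closest to its own number. Such values cannot settle whether array numbers mark pairs, because deviations of whole gonads also vary with their mix of cells. The replicate block joined arrays of equal replicate number. It thus did not join null replicate 2 with control replicate 3, whose descriptions share a leading number. With that block, 0 probe sets were called over all and 0 among members. Trim71 1453599_at then had an unadjusted limma p of 0.00133 and Lin28a 1421749_at one of 0.0495 (adjusted p 0.961 for both). The cause of these shifts was not tested. With 3 arrays per group the 95% intervals of Lin28a, L1td1, Klf4 and Trim71 were wide, whereas background correction limits the 2 dim probe sets of Sall4 and Utf1.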
